A study of Mus musculus with 6 samples.

Results

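The genes described here are 40 genes of macrophages, dendritic cells and neutrophils, taken as the rows of the deposited expression table whose symbol is on the list. All 40 were found, each once, among 36977 genes. RNA-seq was done on colonic tissue of wild-type mice with colitis from dextran sodium sulfate (DSS), which damages the lining of the colon. The DSS+DCA group (3 libraries) is labelled with DSS and deoxycholic acid (DCA), a secondary bile acid made by gut bacteria, and the DSS group (3 libraries) with DSS alone. The protocol text, the same for both groups, gives 2% DSS for 7 days and then DCA by enema, and the sources used here give neither strain and age nor what DSS mice were given instead of the enema. Libraries are numbered 1, 2 and 4 in each group, and 3 values given for a group stand in that order. Nothing in the labels ties them to separate mice, so p-values measure the spread between these libraries, which may be technical in part.

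Myeloid cells reach the gut wall from the bone marrow as blood monocytes, dendritic cell precursors and neutrophils. Monocytes become macrophages that engulf debris and bacteria through scavenger and Fc receptors. Dendritic cells carry antigen to lymph nodes, and neutrophils kill microbes with granule enzymes and with oxidants made by the phagocyte oxidase. In a healthy colon macrophages are the main myeloid cell, and acute colitis is known to bring in monocytes and neutrophils.

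Values are FPKM as deposited, fragments per transcript length and per total of mapped fragments in the library. The libraries differed in ways that touch the results. Mitochondrial transcripts made up 30.5%, 47.6% and 46.7% of the summed FPKM in the DSS+DCA libraries, against 29.4% to 31.4% in DSS. Nuclear protein-coding genes made up 46.0%, 20.9% and 24.2% in DSS+DCA, against 44.8% to 46.0% in DSS. Folds and log2 changes are on this deposited scale unless another scaling is named. DSS replicate 4 lay near the mean of DSS replicates 1 and 2, with a median absolute log2 distance of 0.0994 from it over the tested myeloid genes, where DSS replicates 1 and 2 themselves differed by 0.256. Over all 14611 tested genes these distances were 0.0963 and 0.215. The labels list it as a library of its own, and the SDs and p-values given here for 3 DSS libraries assume that it is independent of the other two, which was not tested. The label gives intestinal epithelial cells as the cell type, but smooth muscle, B cell and other leukocyte markers were also present. The summed level of 8 smooth muscle markers was 1432, 83.0 and 1025 FPKM in the DSS+DCA libraries, against 31.4, 643 and 318 FPKM in the DSS libraries. In bulk tissue, fewer cells of a type and less RNA per cell cannot be told apart.

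No myeloid gene of the 40 passed the test between the groups, and the genes that stood furthest apart did not all lie on one side. Plac8, a small cysteine-rich protein of myeloid and lymphoid cells that some epithelia also make, was 3.06-fold lower in DSS+DCA than in DSS. Cd14, the lipopolysaccharide co-receptor, was 1.88-fold lower. Lyz2, the lysozyme of macrophages and neutrophils, was 1.88-fold higher, and Laptm5, a lysosomal membrane protein of blood cells, was 2.30-fold higher. The 20 genes of the list that were barely present included all 5 neutrophil receptor and granule genes and 7 of 8 genes of dendritic cells and their costimulatory ligands.

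Of the 40 genes, 20 averaged 0.5 FPKM or more across the 6 libraries and were tested with limma across all 14611 genes past that filter. At an adjusted p under 0.05, 0 of the 20 were called, where 0.561% of all tested genes were. At an unadjusted p under 0.05 there were 4 (Plac8, Lyz2, Laptm5 and Cd14), or 20% of the tested members beside 16.7% of all tested genes. The 3 DSS+DCA values lay all above the DSS values for 3 members and all below for 4. These 7 are 35% of the tested members, beside 23.6% of all tested genes (5.80% higher and 17.8% lower). The fitted change was above 0 for 13 members and below 0 for 7, beside 39.5% and 60.5% of all tested genes. Their median log2 change was 0.15, and that of all tested genes was -0.09. The directions depended on scaling. When each library was scaled so that its nuclear protein-coding genes summed alike, the median of all genes became 0.23 and that of the members 0.39. The groups then did not overlap for 11 members, 10 higher and 1 lower, beside 29.7% of all tested genes higher and 5.30% lower. With TMM-style scaling they did not overlap for 8, 7 higher and 1 lower, beside 12.4% and 14.1% of all tested genes. With quantile normalization they did not overlap for 6, 4 higher and 2 lower, beside 23.8% of all tested genes in either direction. Calls over all genes were 19 higher and 63 lower as deposited, and 78 higher and 45 lower after the protein-coding rescaling. Without DSS replicate 4 no gene was called, and the log2 change was -1.72 for Plac8, -0.92 for Cd14, 0.82 for Lyz2 and 0.80 for Laptm5. Relative to the median of all genes the members stood at 0.24 as deposited and at 0.16 after rescaling.

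**Figure D1:**
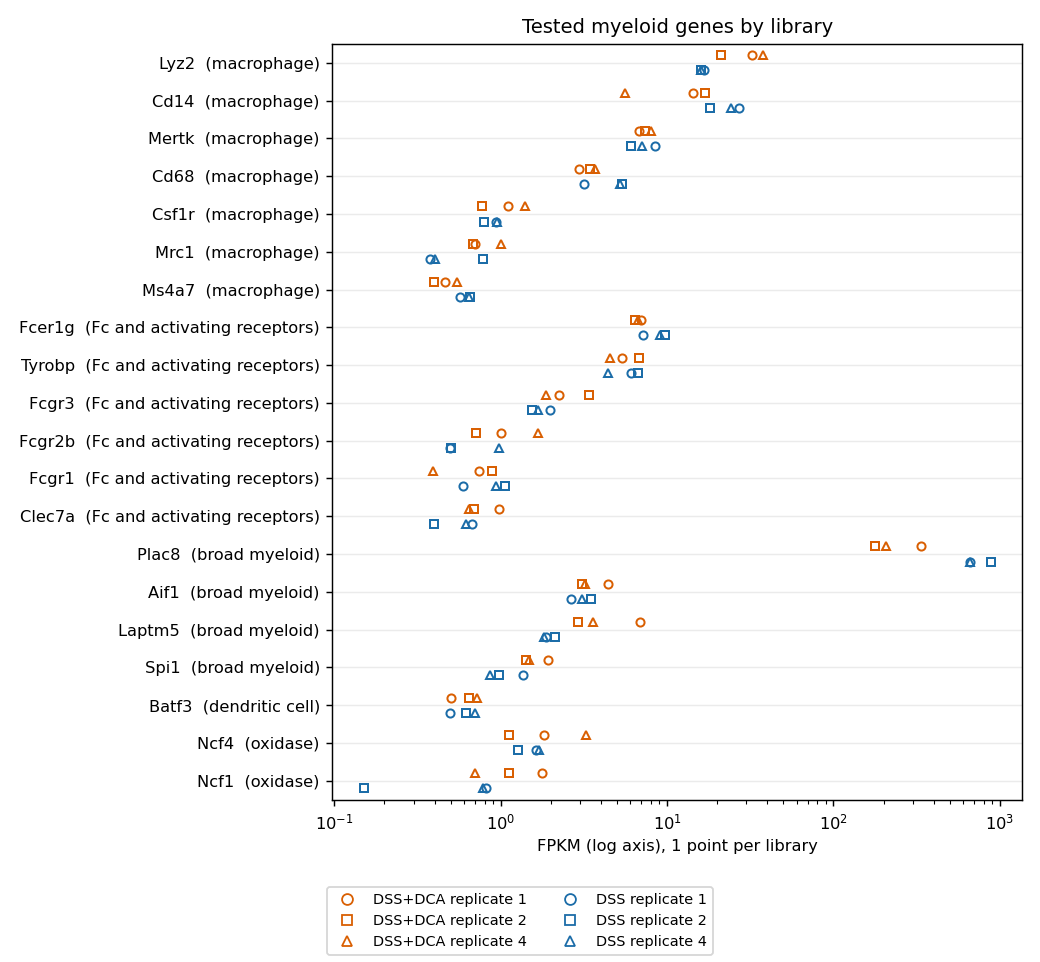
FPKM of the 20 tested myeloid genes on a log axis, with 1 point per library, DSS+DCA in orange above DSS in blue for each gene, and the marker shape giving the replicate number. Plac8 lies far to the right of every other gene, and Plac8, Lyz2, Cd14, Laptm5, Spi1, Fcer1g and Ms4a7 show groups that do not overlap.

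**Figure D2:**
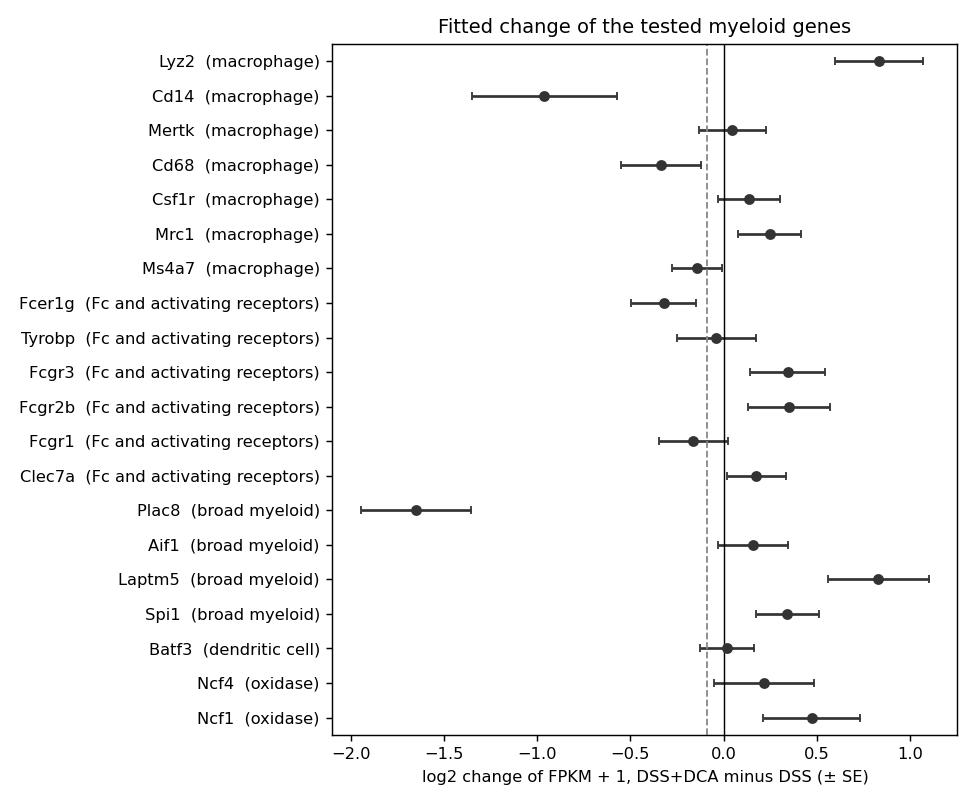
Fitted log2 change of FPKM + 1, DSS+DCA minus DSS, for the 20 tested myeloid genes, with bars of 1 SE, a solid line at 0 and a dashed line at the median of all tested genes (-0.09). Plac8 and Cd14 lie lowest, at -1.65 and -0.96, and Lyz2 and Laptm5 highest, at 0.83 for both.

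Plac8 gave most of the signal of the list. It measured 336, 179 and 207 FPKM in the DSS+DCA libraries, against 662, 886 and 661 FPKM in the DSS libraries. Every DSS+DCA library lay below every DSS library. The log2 change was -1.65 ± 0.30 (SE, adjusted p = 0.0763). Plac8 alone made up 67.7% to 77.6% of the summed FPKM of the 40 genes in DSS+DCA and 88.4% to 91.8% in DSS. The next most abundant members, Lyz2 and Cd14, stayed below 40 FPKM in every library. Over 14 other settings the Plac8 change stayed negative, from -1.92 to -1.07, and it passed the test in 5 of them. These were TMM-style scaling (adjusted p = 0.0314), quantile normalization (0.0376), protein-coding rescaling (0.0432), array weights (0.000996) and the fit without DSS+DCA replicate 1 (0.0164). Array weights called 6227 of all 14611 tested genes and gave DSS replicate 4 a weight of 8.08. The fit without DSS+DCA replicate 1 called 1321 of 14342 genes. The highest adjusted p of the 14 was 0.283, without DSS replicate 4. In the authors' deposited table Plac8 has a fold of 0.327 and a q-value of 8.46e-07. All 10 epithelial markers had a fitted change below 0, beside 60.5% of all tested genes, at a median log2 change of -0.86. Of the 10, 0 passed, beside 0.561% of all tested genes. DSS+DCA lay wholly below DSS for 6 (60%), beside 17.8% of all tested genes. These epithelial values are on the deposited scale. After protein-coding rescaling only 5.30% of all tested genes lay wholly below. Epcam, Cdh1 and Tspan8 had their highest value of all libraries in DSS+DCA replicate 1. The mean log2 level of the 10 markers was 8.73, 7.80 and 7.94 in the DSS+DCA libraries, against 9.07, 8.84 and 8.99 in the DSS libraries. Their part in the Plac8 result was not tested.

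With Plac8 set aside, after its values were seen, the other 39 genes summed to 97.2, 85.1 and 91.3 FPKM in the DSS+DCA libraries, against 86.5, 79.3 and 84.4 FPKM in the DSS libraries. The mean log2 level of the 19 tested ones was 1.95, 1.82 and 1.85 in DSS+DCA, against 1.75, 1.73 and 1.78 in DSS. On this mean log2 level every DSS+DCA library lay above every DSS library by a narrow margin. By summed FPKM the groups overlapped, with DSS+DCA replicate 2 (85.1 FPKM) below DSS replicate 1 (86.5 FPKM). With Plac8 kept in, the mean log2 level of the 20 tested genes was 2.269, 2.0989 and 2.1392 in DSS+DCA. It was 2.1291, 2.1353 and 2.1603 in DSS, so the groups overlapped. The separation on the mean log2 level thus appeared only with Plac8 set aside. Both measures are on the deposited scale and may stand otherwise under another scaling. On that scale nuclear protein-coding genes made up only 20.9% and 24.2% of DSS+DCA replicates 2 and 4. Markers of other tissues varied more from library to library. Summed B cell markers, for example, measured 34.8, 1.78 and 30.9 FPKM in the DSS+DCA libraries, against 3.16, 1.78 and 2.32 FPKM in DSS. The 4 tested pan-leukocyte markers (Coro1a, Cd53, Cd52 and Itgb2) had a mean log2 level of 3.02, 2.14 and 2.79 in DSS+DCA, against 1.85, 2.04 and 1.96 in DSS.

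**Figure D3:**
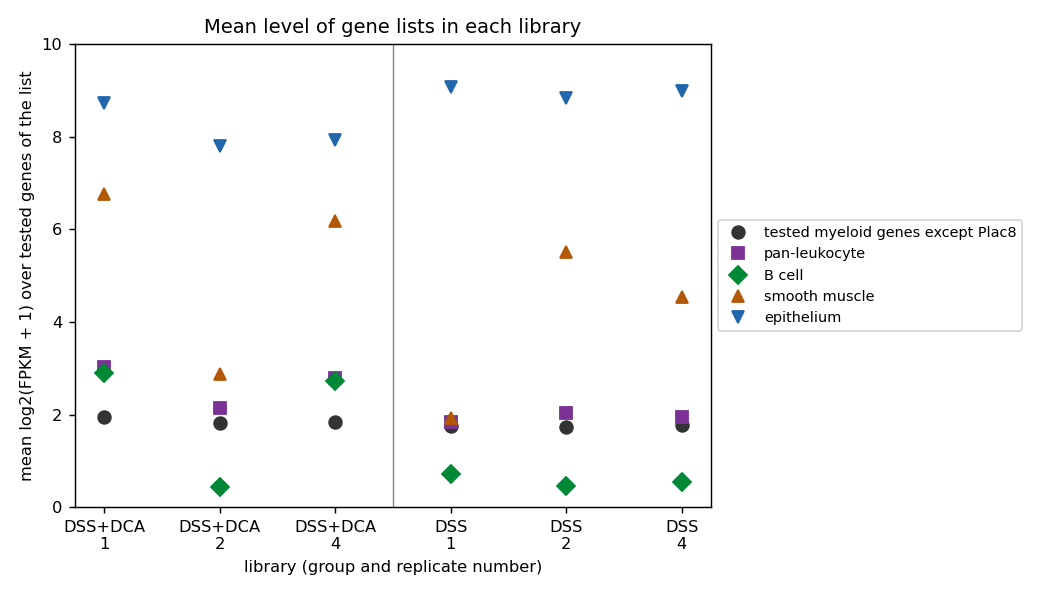
Mean log2(FPKM + 1) over the tested genes of 5 lists in each library, with DSS+DCA libraries left of the line and DSS libraries right of it. The tested myeloid genes except Plac8 stay between 1.73 and 1.95, while smooth muscle markers span 1.92 to 6.76 and B cell markers 0.43 to 2.89.

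Among genes of macrophage identity and the scavenger receptors, 7 of 12 were tested and 0 passed. Lyz2 measured 32.2, 21.2 and 37.9 FPKM in the DSS+DCA libraries, against 16.8, 15.9 and 15.9 FPKM in the DSS libraries. The DSS values were nearly equal and every DSS+DCA value lay above them, at a fitted log2 change of 0.83 ± 0.24 (SE, adjusted p = 0.177). Lyz2 has a near-identical neighbour, Lyz1, the lysozyme of Paneth cells, and the counting used could divide reads between them. Lyz1 measured 1.37, 0.0375 and 1.44 FPKM in the DSS+DCA libraries, against 0.169, 1.44 and 0.593 FPKM in the DSS libraries. Lyz2 stayed positive in all 14 other settings (0.66 to 1.26) and passed in 1, array weights (adjusted p = 0.00186). That setting called 6227 of all 14611 tested genes.

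Cd14 measured 14.2, 17.0 and 5.61 FPKM in the DSS+DCA libraries, against 26.9, 18.1 and 24.1 FPKM in the DSS libraries. The groups did not overlap, but DSS+DCA replicate 2 and DSS replicate 2 lay close together (log2 change -0.96 ± 0.39 SE, adjusted p = 0.287). Without DSS+DCA replicate 4, the lowest library, the change was -0.52 (adjusted p = 0.437). Over 14 other settings it ran from -1.74 to -0.52 and passed in 1, array weights (adjusted p = 0.00302), which called 6227 of all 14611 tested genes. Cd14 and Lyz2, both abundant in monocytes, thus had fitted changes of opposite sign. Mertk, a receptor for dying cells, measured 6.83, 7.33 and 8.05 FPKM in DSS+DCA, against 8.47, 6.03 and 7.03 FPKM in DSS, and the groups overlapped (log2 change 0.05 ± 0.18 SE, adjusted p = 0.919). Cd68, a lysosomal glycoprotein of macrophages, measured 2.95, 3.43 and 3.68 FPKM in DSS+DCA, against 3.18, 5.33 and 5.22 FPKM in DSS. Of the DSS libraries, only replicate 1 lay within the DSS+DCA range (log2 change -0.34 ± 0.21 SE, adjusted p = 0.459, and 0.03 after protein-coding rescaling). Csf1r, the receptor through which macrophages receive their survival signal, averaged 1.09 ± 0.318 FPKM in DSS+DCA and 0.894 ± 0.0869 FPKM in DSS (SD, n = 3 each, adjusted p = 0.716, limma). The mannose receptor Mrc1 averaged 0.797 ± 0.180 FPKM in DSS+DCA and 0.521 ± 0.229 FPKM in DSS (SD, n = 3 each, adjusted p = 0.495, limma). Ms4a7, a membrane protein of macrophages, was at 0.398 to 0.545 FPKM in DSS+DCA, below the 0.566 to 0.650 FPKM of DSS (adjusted p = 0.616).

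The 5 untested macrophage genes stayed at or below 1.03 FPKM. The hemoglobin scavenger receptor Cd163, a marker of resident macrophages, measured 0.196, 0.387 and 0.380 FPKM in the DSS+DCA libraries, against 0.0272 and 0.0544 FPKM in DSS replicates 1 and 2, and it was listed at 0 in DSS replicate 4. Adgre1, which encodes the macrophage surface protein F4/80, measured 0.673, 0.491 and 0.644 FPKM in the DSS+DCA libraries, against 0.225, 0.288 and 0.431 FPKM in DSS. Both genes were described singly because their groups did not overlap, a choice made after their values were seen. With no filter on low values, where 36977 genes were tested and 0.00541% were called, 0 of the 40 members passed. The adjusted p was 0.253 for Cd163, at a log2 change of 0.36 ± 0.08 SE, and 0.513 for Adgre1, at 0.29 ± 0.14 SE. Siglec1 (0.0295 to 0.214 FPKM in DSS+DCA, 0.0167 to 0.0449 in DSS), Marco (at most 0.111 and 0.0720) and the arginase gene Arg1 (0.172 to 0.794 and 0.192 to 1.03) overlapped between groups.

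Fc receptors bind antibody-coated particles, and most of them signal through the adaptor Fcer1g, while Trem receptors and several others use the adaptor Tyrobp. Of these 8 genes 6 were tested and 0 passed. Fcer1g measured 6.95, 6.40 and 6.70 FPKM in the DSS+DCA libraries, against 7.17, 9.70 and 9.12 FPKM in the DSS libraries. Its DSS+DCA values were close together and all lay below DSS (log2 change -0.32 ± 0.17 SE, adjusted p = 0.392), but after protein-coding rescaling the change was 0.08. Tyrobp measured 5.34, 6.74 and 4.51 FPKM in DSS+DCA, against 6.07, 6.65 and 4.43 FPKM in DSS, so that the groups covered nearly the same range. Its fitted change of -0.04 ± 0.21 (SE, adjusted p = 0.940) was the nearest to 0 of the 6 and turned positive under all 3 other scalings. The 2 adaptors were present at similar FPKM, and neither passed the test.

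The low-affinity receptor Fcgr3 measured 2.25, 3.39 and 1.88 FPKM in DSS+DCA, against 1.97, 1.55 and 1.66 FPKM in DSS (adjusted p = 0.427). Fcgr2b, the inhibitory Fc receptor, which B cells also carry, measured 1.00, 0.713 and 1.68 FPKM in DSS+DCA, against 0.498, 0.503 and 0.975 FPKM in DSS (adjusted p = 0.453). Both had groups that overlapped. These neighbouring genes on chromosome 1 are alike in sequence, so the division of reads between them is uncertain. The high-affinity receptor Fcgr1 (0.390 to 0.882 FPKM in DSS+DCA, 0.593 to 1.07 in DSS) and the fungal glucan receptor Clec7a (0.644 to 0.971 and 0.398 to 0.673) overlapped as well. Trem1, an amplifier receptor of neutrophils and monocytes, reached at most 0.236 FPKM in DSS+DCA and 0.229 FPKM in DSS. Trem2, a lipid-sensing receptor of macrophages, reached at most 0.124 FPKM in DSS+DCA and 0.0924 FPKM in DSS.

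Of the broad myeloid genes all 4 were tested, and Laptm5 stood furthest above DSS. It measured 6.89, 2.93 and 3.58 FPKM in the DSS+DCA libraries, against 1.88, 2.11 and 1.83 FPKM in the DSS libraries. DSS+DCA replicate 1 was the highest by far, and the lowest DSS+DCA value still exceeded the highest DSS value (log2 change 0.83 ± 0.27 SE, adjusted p = 0.217). It passed under protein-coding rescaling (adjusted p = 0.0432), which called 123 of 14705 genes, and with array weights (0.00526), which called 6227 of 14611. Over 14 settings the Laptm5 change ran from 0.53, without DSS+DCA replicate 1, to 1.15. Spi1 encodes PU.1, the transcription factor that myeloid cells require, and measured 1.93, 1.42 and 1.49 FPKM in DSS+DCA, against 1.36, 0.982 and 0.864 FPKM in DSS. The groups were separated by a narrow gap (log2 change 0.34 ± 0.17 SE, adjusted p = 0.358). B cells also express Laptm5 and Spi1. In DSS+DCA replicate 2 the summed B cell markers were at 1.78 FPKM, within the DSS range, and Laptm5 and Spi1 were above every DSS library there. The mean log2 level of pan-leukocyte markers (2.14) and of T and natural killer cell markers (1.12) was also above every DSS library there, where the highest were 2.04 and 1.07. The part of other leukocytes in the Laptm5 and Spi1 values was not tested. Aif1, a calcium-binding protein of macrophages also known as Iba1, measured 4.44, 3.08 and 3.19 FPKM in DSS+DCA, against 2.64, 3.51 and 3.08 FPKM in DSS, and overlapped (adjusted p = 0.701).

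Promoter sequences, from 250 bases before to 50 after the annotated start, were on hand from RefSeq (GRCm38.p6) for 30 of the 40 genes. The letters GAGGAA, part of the sequence that PU.1 and related ETS factors bind, or their reverse complement TTCCTC, occurred in at least 1 promoter of 19 of these 30 genes (63.3%), beside 31.3% of the 27025 genes in the table. Counted by promoter, the shares were 61.8% of 34 and 28.3% of 32851. A match is a description of the letters and not a site of binding. The promoters of 4 genes whose groups did not overlap are shown 5′ to 3′ on the gene's strand, with matches in capitals. They lie at chr5:100572156-100572455 (Plac8, minus strand), chr4:130913066-130913365 (Laptm5, plus strand), chr10:117282223-117282522 (Lyz2, minus strand) and chr1:171234300-171234599 (Fcer1g, minus strand). The Plac8 promoter holds the letters once on each strand, with leftmost bases at -146 and -15 from the start, and the Laptm5 promoter once, at -38. In those of Lyz2 and Fcer1g the letters were not found in this window.
Plac8: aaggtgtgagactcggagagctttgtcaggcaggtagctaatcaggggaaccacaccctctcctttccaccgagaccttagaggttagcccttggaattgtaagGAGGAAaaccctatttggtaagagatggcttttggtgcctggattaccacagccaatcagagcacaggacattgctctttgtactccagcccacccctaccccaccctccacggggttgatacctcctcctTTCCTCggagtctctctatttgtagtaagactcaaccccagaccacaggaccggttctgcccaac
Laptm5: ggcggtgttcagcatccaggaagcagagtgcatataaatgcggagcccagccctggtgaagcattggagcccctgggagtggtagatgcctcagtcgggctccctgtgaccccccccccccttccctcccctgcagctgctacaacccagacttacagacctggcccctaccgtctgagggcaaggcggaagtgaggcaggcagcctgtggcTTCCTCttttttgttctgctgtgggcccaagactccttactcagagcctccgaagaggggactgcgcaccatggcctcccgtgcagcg
Lyz2: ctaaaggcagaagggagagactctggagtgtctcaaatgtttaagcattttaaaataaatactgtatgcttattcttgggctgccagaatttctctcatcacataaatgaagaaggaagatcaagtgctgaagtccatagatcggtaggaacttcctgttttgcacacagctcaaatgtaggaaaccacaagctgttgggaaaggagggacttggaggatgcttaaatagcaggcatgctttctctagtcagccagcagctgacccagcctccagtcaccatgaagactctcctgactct
Fcer1g: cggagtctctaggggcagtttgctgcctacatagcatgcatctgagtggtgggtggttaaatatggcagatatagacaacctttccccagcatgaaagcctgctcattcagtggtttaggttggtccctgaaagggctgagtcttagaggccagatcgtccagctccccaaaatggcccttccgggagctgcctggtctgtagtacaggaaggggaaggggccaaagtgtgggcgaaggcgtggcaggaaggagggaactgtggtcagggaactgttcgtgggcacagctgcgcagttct

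A second annotated Plac8 promoter, at chr5:100563047-100563346, did not hold the letters. By the gene models of GENCODE M21 on GRCm38, matched by gene identifier, Plac8 spans 100553725 to 100572245 on chromosome 5, Laptm5 130913125 to 130936141 on chromosome 4 and Lyz2 117277331 to 117282321 on chromosome 10. The sources used here do not name the build behind the deposited table.

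Dendritic cell genes were close to the floor of the data. Of 8 only Batf3, a transcription factor needed for cross-presenting dendritic cells, was tested. It measured 0.501, 0.647 and 0.725 FPKM in the DSS+DCA libraries, against 0.492, 0.618 and 0.705 FPKM in the DSS libraries. The ranges nearly coincided (log2 change 0.02 ± 0.14 SE, adjusted p = 0.963). Clec10a, a galactose-binding lectin of dendritic cells and macrophages, measured 0.180, 0.623 and 0.301 FPKM in DSS+DCA, against 0.0734, 0.0728 and 0.147 FPKM in DSS. It was the one dendritic cell gene whose groups did not overlap (log2 change 0.31 ± 0.13 SE with no filter, adjusted p = 0.494). The costimulatory ligand Cd86 measured 0.488, 0.234 and 0.512 FPKM in DSS+DCA, against 0.363, 0.341 and 0.381 FPKM in DSS. Zbtb46, a transcription factor of classical dendritic cells, measured 0.175, 0.163 and 0.338 FPKM in DSS+DCA, against 0.109, 0.248 and 0.115 FPKM in DSS. Flt3, the receptor for the growth factor of dendritic cells, and Cd80, a further costimulatory ligand, did not exceed 0.185 FPKM in any library. Siglech, of plasmacytoid dendritic cells, stayed below 0.1 FPKM, and Cd209a was listed at 0 in 4 of the 6 libraries.

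No neutrophil gene of the list was abundant enough to be tested. Csf3r, the receptor for granulocyte colony-stimulating factor, measured 0.187, 0.372 and 0.257 FPKM in the DSS+DCA libraries, against 0.414, 0.606 and 0.321 FPKM in the DSS libraries. Fpr2, a receptor for bacterial formyl peptides, measured 0.562, 0.601 and 0.330 FPKM in DSS+DCA, against 0.375, 0.213 and 0.150 FPKM in DSS. Both pairs of groups overlapped, in opposite order of their means. Its relative Fpr1 measured at most 0.128 FPKM in DSS+DCA and 0.251 FPKM in DSS. The granule enzyme genes Mpo and Elane, which are transcribed mainly in neutrophil precursors of the bone marrow, were listed at 0 in all but 1 library each. Mpo measured 0.0369 FPKM in DSS+DCA replicate 1, and Elane 0.161 FPKM in DSS+DCA replicate 2.

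The phagocyte oxidase joins the membrane subunit Cybb to the cytosolic subunits Ncf1 and Ncf4. Ncf4 measured 1.82, 1.12 and 3.27 FPKM in the DSS+DCA libraries, against 1.64, 1.28 and 1.71 FPKM in the DSS libraries (adjusted p = 0.714). Ncf1 measured 1.76, 1.12 and 0.703 FPKM in DSS+DCA, against 0.817, 0.150 and 0.785 FPKM in DSS (log2 change 0.47 ± 0.26 SE, adjusted p = 0.399). Cybb measured 0.687, 0.402 and 0.495 FPKM in DSS+DCA, against 0.311, 0.456 and 0.521 FPKM in DSS, and was not tested. All 3 had overlapping groups, and the highest DSS+DCA library was replicate 4 for Ncf4 and replicate 1 for the other two.

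**Figure D4:**
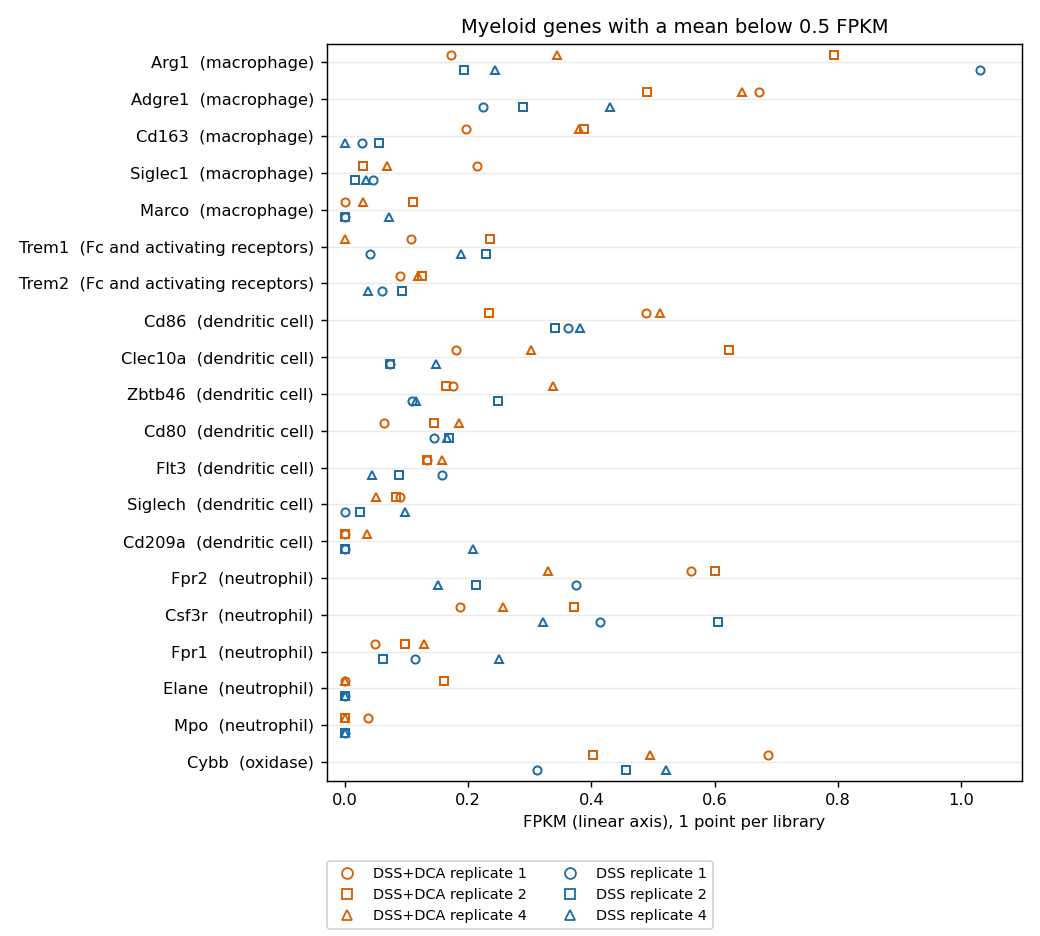
FPKM of the 20 myeloid genes below the filter on a linear axis, with 1 point per library, DSS+DCA in orange above DSS in blue for each gene, and the marker shape giving the replicate number. The highest value is 1.03 FPKM, for Arg1, and Adgre1, Cd163 and Clec10a are the 3 whose groups do not overlap.

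Of these 20 low genes, 3 lay wholly above DSS in the DSS+DCA libraries and 0 wholly below. With no filter, 7.65% of all 36977 genes lay wholly above and 16.0% lay wholly apart in either direction. Those 36977 genes include the 14611 past the filter and so are not a like set for low genes. The DSS+DCA mean of the 20 low genes was above the DSS mean for 14 and below it for 6, and 7 were listed at 0 in at least 1 library. The authors' deposited table marks 3 of the 40 members as significant, beside 3.17% of all its genes. These are Plac8, Laptm5 (fold 2.30, q-value 0.00868) and Cd163 (fold 11.8, q-value 0.00589), the last resting on values below 0.4 FPKM. Lyz2 has a q-value of 0.0424 there and is not marked.

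Of 62 further myeloid genes outside the 40, 35 were tested, 0 were called higher and 2 lower, beside 0.130% and 0.431% of all tested genes. Their median log2 change was 0.03, and the groups did not overlap for 4 of the 35 (11.4%), beside 23.6% of all tested genes. The kinase Syk, which transmits the signal of Fcer1g and Tyrobp, fell to 6.15, 6.57 and 7.35 FPKM in the DSS+DCA libraries, against 19.5, 16.1 and 17.5 FPKM in the DSS libraries. The groups were far apart (log2 change -1.28 ± 0.17 SE, adjusted p = 0.0347), while the adaptors above it in the pathway did not pass. The glycoprotein Cd177, a neutrophil marker that also occurs in epithelium, fell to 7.14, 6.16 and 4.15 FPKM in the DSS+DCA libraries, against 36.3, 26.2 and 32.4 FPKM in the DSS libraries (adjusted p = 0.0266). The other tested neutrophil genes of that list, Retnlg, S100a8, S100a9 and Ly6g, did not pass (adjusted p = 0.674, 0.921, 0.934 and 0.949). Ly6g measured 15.7, 72.3 and 1.79 FPKM in DSS+DCA, against 15.9, 13.7 and 18.6 FPKM in DSS. Over 14 other settings the changes of Syk and Cd177 stayed negative, from -1.39 to -0.87 for Syk and from -2.62 to -1.86 for Cd177. Syk passed in 5 and Cd177 in 8, with adjusted p up to 0.221 and 0.147. Leaving out DSS replicate 1, 2 or 4 or DSS+DCA replicate 4 ended both calls, with log2 changes of -1.34 to -1.21 for Syk and -2.40 to -2.08 for Cd177, and Syk did not pass under any of the 3 other scalings (adjusted p = 0.0604 to 0.0964). The part of the epithelial markers, described beside Plac8, in these 2 results was not tested.

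The remaining further genes did not pass. The complement subunits C1qb and C1qc, made by tissue macrophages, averaged 11.3 ± 2.79 and 6.35 ± 1.49 FPKM in DSS+DCA and 7.87 ± 2.05 and 4.44 ± 0.825 FPKM in DSS (SD, n = 3 each, adjusted p = 0.401 and 0.374, limma). The transcription factor Maf of tissue macrophages averaged 1.85 ± 0.841 FPKM in DSS+DCA and 0.814 ± 0.204 FPKM in DSS, with no overlap (SD, n = 3 each, adjusted p = 0.266, limma). Among further dendritic cell genes, the actin bundler Fscn1 of mature dendritic cells had the smallest p (adjusted p = 0.260), followed by Cd83 (0.421) and Irf8 (0.817). The kinase Lyn and the GTPase Rac2, which acts in the oxidase, had adjusted p = 0.390 and 0.402. The macrophage growth factors Il34 and Csf1 averaged 1.33 ± 0.142 and 1.34 ± 0.695 FPKM in DSS+DCA and 1.84 ± 0.565 and 1.57 ± 0.362 FPKM in DSS (SD, n = 3 each, adjusted p = 0.514 and 0.768, limma), and Flt3l had an adjusted p = 0.828.

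Libraries of one group also differed among themselves. Between pairs of DSS+DCA libraries the median absolute log2 difference over the tested members was 0.236 to 0.248, and between pairs of DSS libraries it was 0.142 to 0.256. Of the 20 tested members, 6 had their highest value in DSS+DCA replicate 4, 5 in DSS+DCA replicate 1 and 2 in DSS+DCA replicate 2, against 2, 5 and 0 in DSS replicates 1, 2 and 4.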

How the data were processed

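Per the file headers, the authors deposited 1 FPKM value for each gene in each library, with no stated scaling between libraries. They also deposited, per the file headers, their own comparison: a fold (the ratio of the group means, DSS+DCA on top), its log2, p-values and q-values. HISAT2 2.2.1 and StringTie 2.1.6 are among the tools that the submitters' processing notes list, with no role given. The sources used here do not state whether counting used strand. Low values were checked for steps of whole fragments. At best 34.6% to 38.5% lay within 0.05 of a whole number, where chance gives 10%, so depth is unknown and no count test was run.

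Genes averaging 0.5 FPKM or more were tested as log2(FPKM + 1) with limma 3.58.1 (trend, two-sided, no covariates) in R 4.3.3, with Benjamini-Hochberg adjustment over all 14611 genes and calls at 0.05. Log2 changes understate the change of low genes, and folds are ratios of mean FPKM. The fit was tested on simulated data. Other settings were pseudocount, filter, scaling (TMM-style, quantile, protein-coding), array weights, replicate block and each library left out. Members and lists were chosen with earlier results of these data known. Members were described singly if called, among the 4 most abundant of their role or the 2 of smallest p, and the rest by range. Of the further genes, the called ones, the 3 of smallest p in each list and all tested neutrophil genes were named. Figures used matplotlib 3.10.9.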

Additional observations from a re-analysis of the deposited data

How the results depend on the processing

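Of the 20 tested members 12, Plac8, Laptm5, Lyz2, Cd14 and Spi1 among them, kept the sign of their change in all settings run, and 8 did not. Of 270 member values under other settings 14 passed the test. The 82 calls over all genes became 2 with no filter, 157 with TMM-style scaling (on the tested genes' FPKM), 6227 with array weights and 1 with the replicate block, and 0 to 1321 with 1 library left out. Array weights gave DSS replicate 4 a weight of 8.08. Leaving out DSS replicate 1 or DSS replicate 4 left 0 calls in limma (1498 and 1407 at an unadjusted p under 0.05), DSS replicate 2 16, and DSS+DCA replicates 1, 2 and 4 1321, 177 and 11. Of the 20 tested members, 1 was called with TMM-style scaling, beside 157 of 14633 genes, and 1 with quantile normalization, beside 93 of 14611. With protein-coding rescaling 2 were called, beside 123 of 14705 genes, and with array weights 9, beside 6227 of 14611. With a library left out, 0 to 1 members were called. Members without overlap numbered 11 with protein-coding rescaling (55% of those tested, beside 35% of all tested genes) and 7 to 12 with a library left out. The 7, without DSS+DCA replicate 1, were 33.3% of those tested beside 46.9% of all genes, and the 12, without DSS replicate 1, were 54.5% beside 31.6%. The median log2 change of the members, 0.15, was 0.22 with a pseudocount of 0.1, 0.0612 with no filter, 0.00361 at a mean of at least 2 FPKM, 0.22 with TMM-style scaling, 0.39 with protein-coding rescaling, 0.0514 with array weights, and 0.0524 (without DSS+DCA replicate 4) to 0.19 with a library left out. Changes that turned sign under a scaling were those of Tyrobp (0.0894 with TMM-style scaling, 0.0834 with quantile normalization, 0.345 with protein-coding rescaling), Batf3 (-0.0534 with quantile normalization), and, with protein-coding rescaling, Cd68 (0.0307), Fcer1g (0.0776), Fcgr1 (0.0351) and Ms4a7 (0.0201). With a library left out, sign turned for Tyrobp (-0.186 to 0.0750), Batf3 (-0.0345 to 0.0726), Mertk (-0.0564 to 0.158) and Ncf4 (-0.0503 to 0.454). The cause of these changes was not tested. With values centred within each group, 0 of 3 DSS+DCA libraries correlated best with the DSS library of the same number. DSS replicate 4 lay near the mean of DSS replicates 1 and 2 and correlated at -0.0427 to 0.0347. The check therefore cannot show whether the numbers pair the libraries. With the replicate block 0 members were called and neither Syk nor Cd177 passed. The settings for Syk and Cd177 were added after their calls were seen. Fragment counts are unknown, so the counting error of genes below 0.5 FPKM could not be set.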
